A study of Homo sapiens with 6 samples.

Results

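The large subunit of the cytosolic ribosome was examined through 45 genes that encode its proteins, RPL3 to RPL41 and the P-stalk genes RPLP0, RPLP1 and RPLP2. A row of a count table belonged to the set when its NCBI Gene ID carried 1 of these 45 symbols. No measured value entered that rule for rows, but the genes were chosen with earlier results of these data known. Counts over the set are therefore not independent support for it. All 45 were found among the 25702 identifiers of the tables, and all 45 were among the 15431 genes that passed the filter on low counts. RNA came from K562, an established cell line from a chronic myeloid leukaemia that expresses erythroid genes, and the labels record no drug treatment. The cells were transfected by electroporation with a pCMV-HA plasmid that was empty (EV), or expressed MXD3, or expressed the fusion STIM1::MXD3, and each group had 2 libraries from separate transfections. MXD3 antagonises MYC by competing for its DNA sites, and the fusion puts the signal peptide region of STIM1 in place of the repression domain at the start of MXD3. Expression from the plasmid is transient, driven by a viral promoter and far above the cell's own level, and no selection of transfected cells before RNA extraction is stated.

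The large subunit joins amino acids at its peptidyl transferase centre, which is made of RNA, and lets the growing chain out through a tunnel, while its proteins hold the RNA in shape, form the tunnel wall and rim, and build the stalk that receives the translation factors. Their messengers are among the most abundant of a growing cell. They carry a 5′ terminal oligopyrimidine (TOP) tract, an uninterrupted run of C and T that opens with C at the first transcribed base, through which mTOR signalling and LARP1 control their translation and stability. MYC is a known activator of ribosomal protein genes. Loss of 1 copy of several of them in humans causes Diamond-Blackfan anaemia, a failure of red cell formation.

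Libraries held between 53048343 and 63835779 counts, and the lowest count of any gene of the set in a library was 8653 (RPL38 in MXD3 replicate 1), so counting error was small beside the difference between libraries. The level of MXD3 was 9.33 and 11.7 TMM-scaled counts-per-million (CPM) in EV, 2523 and 2162 CPM with MXD3, and 1975 and 1849 CPM with STIM1::MXD3. STIM1 stood at 205 and 176 CPM in EV, 187 and 159 CPM with MXD3, and 471 and 453 CPM with STIM1::MXD3, so all 6 libraries went with their labels. All 12 K562 markers were expressed, with summed levels between 7294 and 10103 CPM. Of 12 markers of other blood and epithelial cells 2 (MS4A1 and KRT5) were at 0 in all libraries, and the summed level was 81.6 to 97.7 CPM in EV, 84.2 to 90.3 CPM with MXD3 and 84.9 to 105.1 CPM with STIM1::MXD3, nearly all of it from EPCAM at 77.9 to 100.5 CPM. The part of other cells in the results was not tested. GENCODE lists 1079 processed pseudogenes for the 45 genes (133 of them for RPL21), and near-identical copies make these counts uncertain. The tables held 22 such pseudogenes, with 0.288% to 0.319% of the counts of the set. With 2 libraries a group, p-values measure the spread between these transfections.

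The start sites of these genes are shown first, because the TOP tract is what most of them share. RefSeq promoter windows (GRCh38.p14, 250 bases before to 50 after each annotated start) were at hand for 38 of the 45 genes. Of these, 28 had an annotated start that opens a run of at least 5 pyrimidines beginning with C, against 5.142% of all 27305 genes in the table. The windows below run from 10 bases before the start to 20 from it on, and capitals mark the pyrimidine run from the first transcribed base. They belong to genes with small p-values in the comparisons (RPL26, RPL29, RPL7A, RPL35A), to the P-stalk base (RPLP0), and to short genes that differed most between replicates (RPL41, RPL39, RPL36A, RPL38).
RPL26 (chr17:8383174-8383203, minus strand): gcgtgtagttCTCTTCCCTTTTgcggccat
RPL29 (chr3:51995876-51995905, minus strand): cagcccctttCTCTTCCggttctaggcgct
RPL7A (chr9:133348208-133348237, plus strand): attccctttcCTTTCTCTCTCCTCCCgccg
RPL35A (chr3:197950180-197950209, plus strand): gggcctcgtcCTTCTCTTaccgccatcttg
RPLP0 (chr12:120201092-120201121, minus strand): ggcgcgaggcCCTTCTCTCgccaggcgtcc
RPL41 (chr12:56116623-56116652, plus strand): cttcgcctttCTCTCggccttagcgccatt
RPL39 (chrX:119791611-119791640, minus strand): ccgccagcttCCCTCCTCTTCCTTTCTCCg
RPL36A (chrX:101391001-101391030, plus strand): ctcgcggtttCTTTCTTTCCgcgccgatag
RPL38 (chr17:74203668-74203697, plus strand): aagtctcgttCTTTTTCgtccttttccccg
RPL27 and RPL4 are printed for contrast, since their annotated starts open with another base and so carry no capitals. Both were also among the 4 genes with the smallest p-values in a comparison. So were RPL3, RPL17 and RPL32, which likewise had no run of at least 5 pyrimidines. A relation between the run and the p-values was not tested.
RPL27 (chr17:42998409-42998438, plus strand): gtgaaaggttagcggaagtgtccttctttc
RPL4 (chr15:66504836-66504865, minus strand): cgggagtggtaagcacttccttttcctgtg
The runs above were between 5 bases (RPL41) and 19 bases (RPL39) long. In RPL27 and RPL4 pyrimidine-rich letters follow a few bases further on, so the call depends on which base is annotated as the start. The E-box CACGTG, the sequence that MYC and MXD proteins read with MAX, was found on either strand in the windows of 2 of the 38 genes (RPL13A and RPL19), against 8.775% of all genes. CCGGAAG, a site form of ETS factors, was in 13 of 38 (12.16% of all genes), and TATAAA in 3 of 38 (13.99%). A match describes letters in a window of 300 bases and is not a binding site.

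With MXD3, all 45 genes were lower than in EV in the fit over all libraries and within both replicate pairs, each by a small amount. The set held 4.96% and 5.35% of the counts of the EV libraries, 4.32% and 4.83% with MXD3, and 5.06% and 5.37% with STIM1::MXD3. The median log2 fold change of MXD3 against EV was -0.24, with a range of -0.33 (RPL35A) to -0.12 (RPL23), where the median over all genes tested was 0.0011. All 45 genes were lower in both same-numbered pairs of libraries, against 31.5% of all genes tested, with pair medians of -0.29 (replicate 1) and -0.19 (replicate 2). In 25 of the 45 both MXD3 libraries lay below both EV libraries, against 14.8% of all genes. No single gene passed the main test. The edgeR quasi-likelihood test called 0 of 45 (0.00648% of all genes tested) at an adjusted p under 0.05, and 4 were lower at an unadjusted p under 0.05 (0.907% of all genes).

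**Figure D1:**
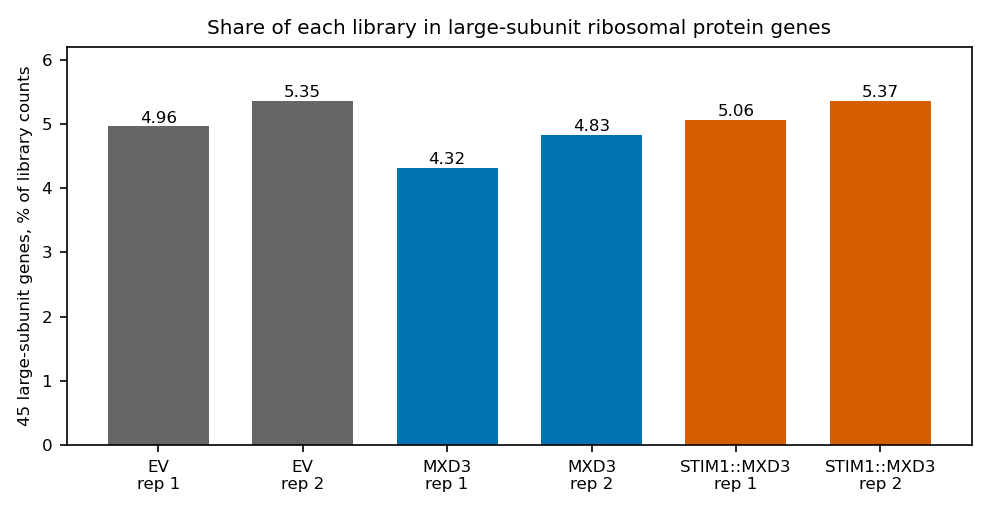
Share of library counts (percent, linear axis from 0) that fell on the 45 large-subunit genes, 1 bar per library, coloured by plasmid. Within each replicate number the MXD3 library was lowest (4.32% in replicate 1 and 4.83% in replicate 2).

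The call depended on how the replicate number was treated. With the number as a block in edgeR, 36 of 45 genes were lower at an unadjusted p under 0.05 (6.99% of all genes), and 0 of 45 passed after adjustment (0.292% of all genes). DESeq2 with the block called 12 of 45 as lower (0.985% of all genes), namely RPL7A, RPL18, RPL26, RPL27, RPL27A, RPL29, RPL34, RPL35A, RPL37, RPL37A, RPL38 and RPLP2. The 0.985% is a share of all 15431 genes tested, of which 10046 had an adjusted p in DESeq2, the 45 among them. Without its independent filtering on mean counts, DESeq2 called 6 of these (0.661% of all genes were called as lower), RPL18, RPL26, RPL27, RPL35A, RPL37 and RPLP2. DESeq2 without the block called 0. Leaving out 1 library moved the size. The median was -0.13 without MXD3 replicate 1, with 36 of 45 genes lower, and -0.34 without MXD3 replicate 2, with 45 lower. Without EV replicate 2 it was -0.18, with 38 lower. These fits had no block and left the replicate numbers unequal between groups, so a difference between replicates enters their medians. Within the replicate 2 pair the median was -0.19, and all 45 genes were lower there. In bulk RNA, less messenger per cell and fewer cells that make it cannot be told apart.

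The 4 genes with the smallest p-values in edgeR for MXD3 against EV were RPL27, RPL29, RPL26 and RPL7A. RPL27 (Gene ID 6155, on chromosome 17 of GRCh37 from 41150290 to 41154976, plus strand, 5 exons), mutated in some families with Diamond-Blackfan anaemia, had 579 and 561.6 CPM in EV, 453 and 463 CPM with MXD3, and 598 and 546 CPM with STIM1::MXD3. Both MXD3 libraries lay below all the others, which fell in a narrow band. The log2 fold change was -0.32 ± 0.12 (SE; unadjusted p = 0.0322, edgeR), and -0.32 ± 0.09 in DESeq2 with the block (adjusted p = 0.019). RPL29 (Gene ID 6159, on chromosome 3 of GRCh37 from 52027538 to 52029911, minus strand, 4 exons), a basic protein of the subunit surface that also binds heparin, stood at 825 and 843 CPM in the EV libraries, against 663 and 700.5 CPM with MXD3 and 831 and 783 CPM with STIM1::MXD3. Its log2 fold change with MXD3 was -0.29 ± 0.12 (SE; unadjusted p = 0.0418, edgeR), and the MXD3 libraries again lay below the other 4.

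RPL26 (Gene ID 6154, on chromosome 17 of GRCh37 from 8280834 to 8286531, minus strand, 4 exons) sits at the rim of the tunnel exit and also binds MDM2 and the p53 messenger. It had 526 and 565 CPM in EV, 404 and 473 CPM with MXD3, and 556 and 553 CPM with STIM1::MXD3. Here too the MXD3 libraries were the 2 lowest of the 6. Against EV the log2 fold change was -0.32 ± 0.13 (SE; unadjusted p = 0.0466, edgeR). RPL7A (Gene ID 6130, on chromosome 9 of GRCh37 from 136215073 to 136218281, plus strand, 8 exons), whose introns carry 4 small nucleolar RNAs, was at 1958 and 1944 CPM in the EV libraries, against 1581 and 1656 CPM with MXD3 and 1938 and 1883 CPM with STIM1::MXD3. There the replicates of each group lay close together, and MXD3 stood apart at -0.27 ± 0.11 (SE; unadjusted p = 0.0477, edgeR). RPL35A (Gene ID 6165, on chromosome 3 of GRCh37 from 197677061 to 197683481, plus strand, 5 exons), a Diamond-Blackfan anaemia gene, had the log2 fold change furthest from 0 (-0.33 ± 0.19, SE) and the smallest adjusted p in DESeq2 with the block (0.0121), with 547 and 667 CPM in EV, 415 and 554 CPM with MXD3, and 533 and 638 CPM with STIM1::MXD3. Replicate 2 was above replicate 1 in each group by a margin close to that between plasmids, so that MXD3 replicate 2 overlapped EV replicate 1 although both pairs were lower.

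**Figure D2:**
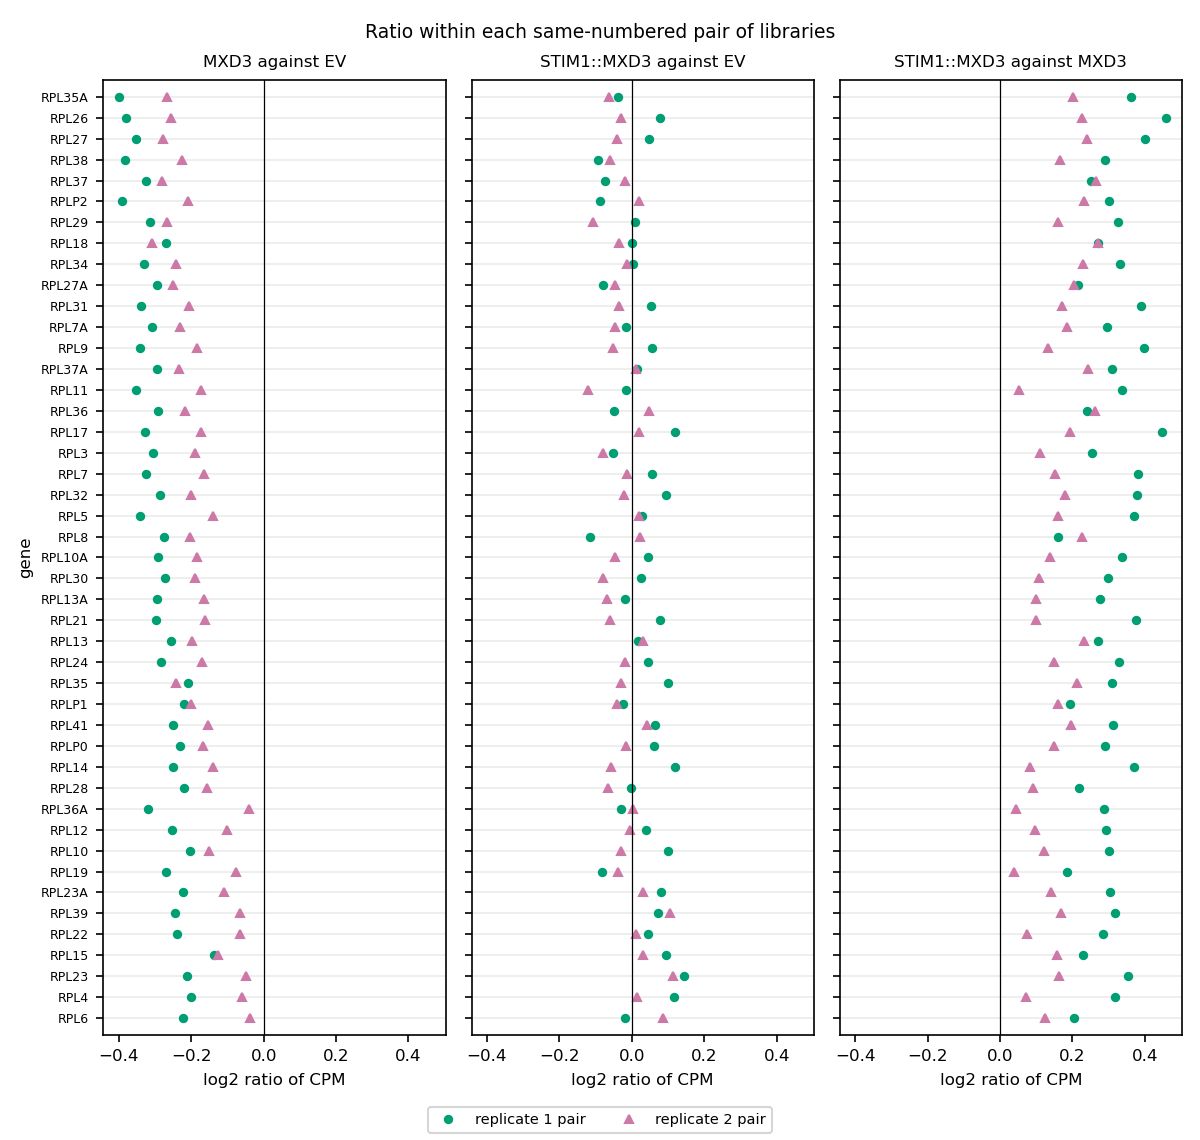
Log2 ratio of CPM for each of the 45 genes (rows, ordered by the mean ratio of MXD3 against EV) in the replicate 1 pair (circles) and the replicate 2 pair (triangles), 1 panel per comparison. All points lie below 0 for MXD3 against EV and above 0 for STIM1::MXD3 against MXD3, which share the MXD3 libraries, and on both sides of 0 for STIM1::MXD3 against EV.

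The P stalk recruits the elongation factors and switches on their GTPase activity. RPLP0 (Gene ID 6175, on chromosome 12 of GRCh37 from 120634502 to 120639038, minus strand, 8 exons), the stalk base that carries the RPLP1 and RPLP2 dimers, had 4428 and 3881 CPM in EV, 3774 and 3459 CPM with MXD3, and 4616 and 3836 CPM with STIM1::MXD3. It was the gene of the set with the most counts, and replicate 1 was the higher library in every group. RPLP1 stood at 1913 and 1606 CPM in the EV libraries, against 1643 and 1396 CPM with MXD3 and 1880.4 and 1561 CPM with STIM1::MXD3, with the same order of replicates, so its groups overlapped. RPLP2 had 921 and 965 CPM in EV, 702 and 835 CPM with MXD3, and 866 and 979 CPM with STIM1::MXD3, and its MXD3 libraries were the lowest of the 6. RPL12, which binds the RNA at the foot of the stalk, had 1117 and 1245 CPM in the EV libraries, against 937 and 1159.5 CPM with MXD3 and 1148 and 1239 CPM with STIM1::MXD3. The log2 fold changes of MXD3 against EV in these 4 genes were between -0.30 (RPLP2) and -0.17 (RPL12), and those of STIM1::MXD3 against EV between -0.032 and 0.025. RPL10A, the protein of the L1 stalk on the opposite flank that helps spent tRNA leave, had 927 and 909 CPM in EV, 756 and 799 CPM with MXD3, and 955 and 879 CPM with STIM1::MXD3, with -0.29 and -0.19 for the log2 ratio of MXD3 to EV in replicates 1 and 2.

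RPL5 and RPL11 bind 5S RNA and enter the ribosome with it as 1 particle, and when unused this particle binds MDM2 and stabilises p53. RPL5 had 1634 and 1590.5 CPM in EV, 1289.8 and 1444 CPM with MXD3, and 1668 and 1614 CPM with STIM1::MXD3. Its MXD3 libraries lay below the other 4. RPL11 stood at 985 and 1191 CPM in the EV libraries, against 772 and 1055 CPM with MXD3 and 975 and 1095 CPM with STIM1::MXD3, and here the replicate 2 libraries were the higher ones, so that MXD3 replicate 2 lay above EV replicate 1. The log2 ratios of MXD3 to EV in replicates 1 and 2 were -0.34 and -0.14 for RPL5 and -0.35 and -0.17 for RPL11. RPL11 was also lower with STIM1::MXD3 than in EV within both pairs (-0.015 and -0.12), which RPL5 was not (0.029 and 0.021). RPL23, another MDM2 binder that lies at the face turned to the small subunit, had 593 and 717 CPM in EV, 512 and 693 CPM with MXD3, and 655 and 776 CPM with STIM1::MXD3. It had the smallest difference of the set with MXD3 (-0.12 ± 0.19, SE) and the highest with STIM1::MXD3 against EV (0.13 ± 0.19, SE), and its replicates differed more than its groups.

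Close to the peptidyl transferase centre, RPL3 (Gene ID 6122, on chromosome 22 of GRCh37 from 39708887 to 39716394, minus strand, 10 exons) had 2707 and 2677 CPM in EV, 2191 and 2345 CPM with MXD3, and 2613 and 2533 CPM with STIM1::MXD3. The order of groups was the same in both replicates, with EV highest and MXD3 lowest. RPL10, which is added last in the cytoplasm and is mutated in some T-cell leukaemias, stood at 2037 and 1977 CPM in the EV libraries, against 1770.3 and 1779 CPM with MXD3 and 2181 and 1935 CPM with STIM1::MXD3. Its log2 ratios of MXD3 to EV were -0.20 and -0.15 in replicates 1 and 2. RPL8, a neighbour of the centre whose histidine is hydroxylated, had 1676 and 1616 CPM in EV, 1385 and 1403 CPM with MXD3, and 1547 and 1642 CPM with STIM1::MXD3, and RPL27A, likewise hydroxylated, had 1135 and 1330.4 CPM in the EV libraries, against 926 and 1118 CPM with MXD3 and 1075 and 1288 CPM with STIM1::MXD3. RPL8 was the gene with the lowest ratio of STIM1::MXD3 to EV in replicate 1 (-0.12), while its replicate 2 ratio was 0.023.

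Along the exit tunnel, RPL4 and RPL17 form the narrow part and RPL39 lines the wall further down. RPL4 had 3509 and 3247 CPM in EV, 3052 and 3117 CPM with MXD3, and 3807 and 3276 CPM with STIM1::MXD3. RPL17 stood at 748 and 703 CPM in the EV libraries, against 596 and 624 CPM with MXD3 and 812 and 714 CPM with STIM1::MXD3. In both genes STIM1::MXD3 replicate 1 was the highest of all libraries and the MXD3 libraries were the lowest. RPL39, on the X chromosome, had 242 and 375 CPM in EV, 205 and 359 CPM with MXD3, and 255 and 403 CPM with STIM1::MXD3, and its replicate 2 libraries lay above all replicate 1 libraries whatever the plasmid. In the tunnel genes the log2 fold change of STIM1::MXD3 against EV was between 0.068 and 0.092. In all 3 the ratio was above 0 in both pairs, as in 11 of the 45 genes and 27.2% of all genes. The replicate 2 ratios of RPL4 and RPL17 were only 0.013 and 0.021. With the block 0 of the 3 had an unadjusted p under 0.05 in edgeR (8.5% of all genes).

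At the rim of the exit, where nascent chains meet the signal recognition particle and the SEC61 channel, RPL23A had 1199 and 1469.7 CPM in EV, 1028 and 1363 CPM with MXD3, and 1269 and 1501 CPM with STIM1::MXD3 and RPL35 stood at 479 and 645 CPM in the EV libraries, against 415 and 545 CPM with MXD3 and 514 and 631 CPM with STIM1::MXD3. In both genes replicate number separated the libraries more than plasmid did. RPL19 had 1183 and 1207 CPM in EV, 982 and 1144 CPM with MXD3, and 1117 and 1175 CPM with STIM1::MXD3, with both MXD3 libraries below EV but MXD3 replicate 2 above STIM1::MXD3 replicate 1. RPL22, which is deleted in some T-cell leukaemias, stood at 602 and 697 CPM in the EV libraries, against 509.96 and 666 CPM with MXD3 and 621 and 702 CPM with STIM1::MXD3, and RPL31 had 622 and 757 CPM in EV, 492 and 657 CPM with MXD3, and 645 and 739 CPM with STIM1::MXD3. Over the 6 rim genes, RPL26 included, the median log2 fold change was -0.20 for MXD3 against EV (range -0.32 to -0.14), 0.025 for STIM1::MXD3 against EV (-0.061 to 0.053) and 0.23 between the constructs (0.11 to 0.34).

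Besides RPL5, RPL11, RPL26, RPL27, RPL31, RPL35 and RPL35A, the set held 2 more Diamond-Blackfan anaemia genes. RPL15 had 1262 and 1417 CPM in EV, 1148 and 1299 CPM with MXD3, and 1346 and 1449 CPM with STIM1::MXD3. RPL18 stood at 986 and 907 CPM in the EV libraries, against 818 and 732 CPM with MXD3 and 986 and 884 CPM with STIM1::MXD3, with log2 ratios of MXD3 to EV of -0.27 and -0.31 in replicates 1 and 2. The median of the 9 genes was -0.26 for MXD3 against EV (range -0.33 to -0.13), beside -0.24 for the whole set, and 8 of the 9 had an unadjusted p under 0.05 in edgeR with the block, beside 36 of the 45 and 6.99% of all genes (lower). For STIM1::MXD3 against EV it was 0.0052, and 0 of the 9 had such a p, beside 0 of the 45 and 8.5% of all genes.

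**Figure D3:**
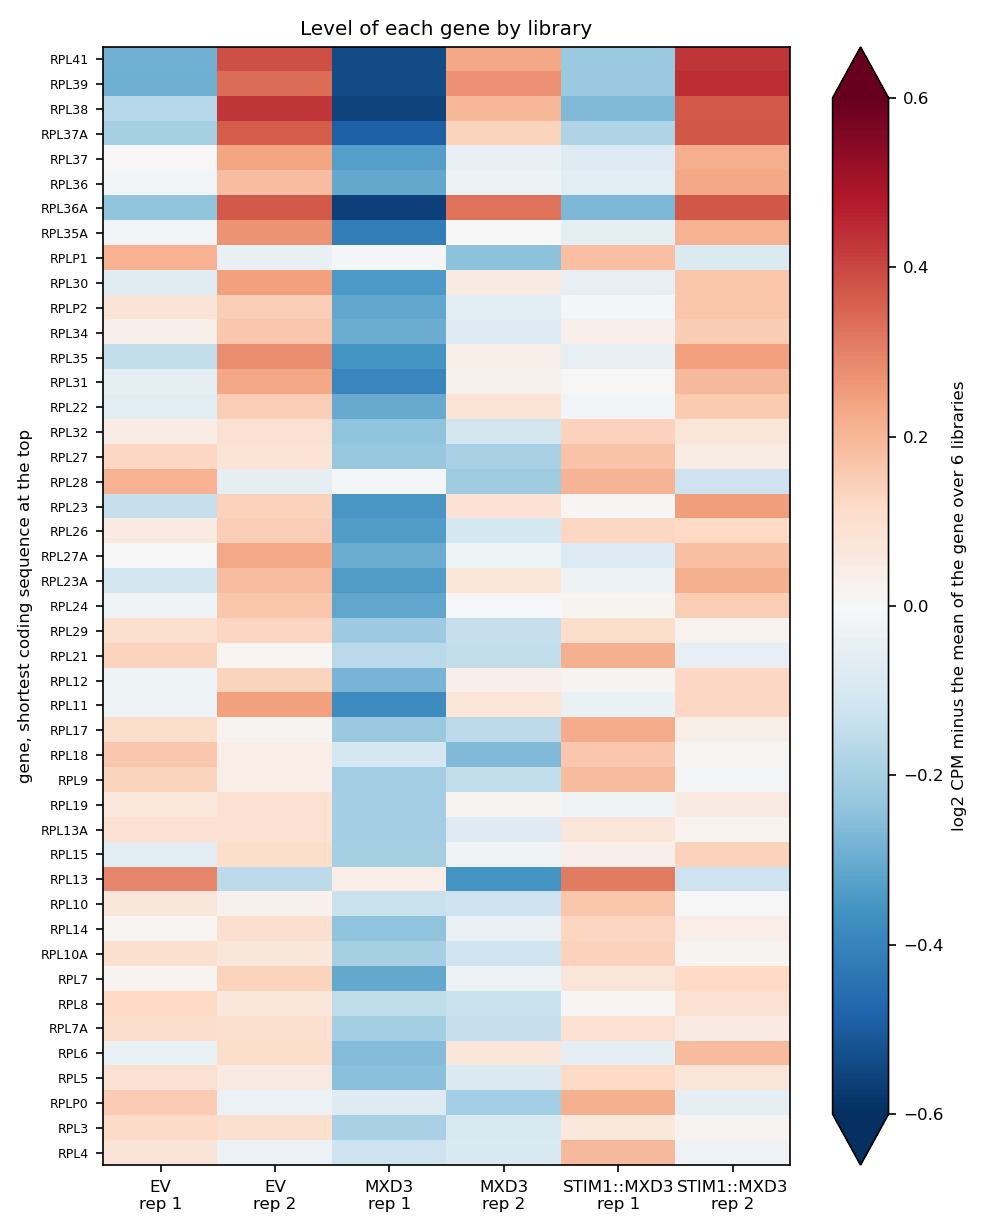
Level of each of the 45 genes in the 6 libraries, as log2 CPM minus the mean of the gene over all 6, with the shortest coding sequence at the top (colour scale from -0.6 to 0.6). The MXD3 replicate 1 column is below the mean for nearly all genes. For RPL41, RPL39, RPL38 and RPL37A, the 4 shortest, and for RPL36A every replicate 2 library is above every replicate 1 library. The same holds for some longer genes, RPL6 and RPL11 among them.

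The genes not yet described hold further structural proteins of the subunit. RPL6, for which the replicate 2 ratio of MXD3 to EV was the nearest to 0 of all 45 (-0.036), had 949.9 and 1049 CPM in EV, 814 and 1023 CPM with MXD3, and 938 and 1114 CPM with STIM1::MXD3. RPL7 stood at 1210.2 and 1309 CPM in the EV libraries, against 966 and 1167 CPM with MXD3 and 1257 and 1297 CPM with STIM1::MXD3, and RPL14 had 1744 and 1853 CPM in EV, 1467 and 1683 CPM with MXD3, and 1894 and 1782 CPM with STIM1::MXD3. RPL13A, which is released from ribosomes after interferon-gamma to block translation of inflammatory messengers, had 2382 and 2380.2 CPM in the EV libraries, against 1942 and 2122 CPM with MXD3 and 2349.98 and 2271 CPM with STIM1::MXD3. RPL13 was an exception, with 2265 and 1656 CPM in EV, 1898 and 1444 CPM with MXD3, and 2291 and 1694 CPM with STIM1::MXD3. Its replicate 1 libraries were higher than its replicate 2 libraries by a wider margin than in any other gene of the set, and still each MXD3 library lay below its EV partner. RPL9 stood at 864 and 809 CPM in the EV libraries, against 682 and 712 CPM with MXD3 and 898 and 781 CPM with STIM1::MXD3, RPL21 had 546 and 501 CPM in EV, 444 and 448 CPM with MXD3, and 576 and 479.8 CPM with STIM1::MXD3, and RPL32 had 1146 and 1184 CPM in the EV libraries, against 940.3 and 1029.7 CPM with MXD3 and 1222 and 1166 CPM with STIM1::MXD3. In RPL9, RPL21 and RPL32 both MXD3 libraries were the lowest of the 6.

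RPL24, which forms a bridge to the small subunit, had 521 and 596 CPM in EV, 428 and 530.3 CPM with MXD3, and 537 and 589 CPM with STIM1::MXD3. RPL28 stood at 1292 and 1075 CPM in the EV libraries, against 1109 and 964 CPM with MXD3 and 1289.8 and 1026 CPM with STIM1::MXD3, with replicate 1 the higher library in each group. RPL30, an RNA-binding protein, had 474 and 590.1 CPM in EV, 392 and 518 CPM with MXD3, and 482 and 558 CPM with STIM1::MXD3, and RPL34 had 412 and 452 CPM in the EV libraries, against 328 and 382 CPM with MXD3 and 412 and 448 CPM with STIM1::MXD3. RPL36 stood at 346 and 398 CPM in EV, 283 and 342 CPM with MXD3, and 335 and 411 CPM with STIM1::MXD3, and RPL37 had 611 and 722 CPM in the EV libraries, against 488 and 593 CPM with MXD3 and 581 and 712 CPM with STIM1::MXD3. In RPL34, RPL36 and RPL37 MXD3 did not overlap EV, and in RPL24, RPL28 and RPL30 it did.

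Of the shortest genes, RPL41 (Gene ID 6171, on chromosome 12 of GRCh37 from 56510374 to 56511751, plus strand, 3 exons), which encodes the smallest protein of the ribosome, a peptide that bridges its subunits, had 651 and 1039 CPM in EV, 548 and 933 CPM with MXD3, and 681 and 1069 CPM with STIM1::MXD3. RPL38, needed in mice for the translation of Hox messengers, had 176 and 266 CPM in the EV libraries, against 135 and 227 CPM with MXD3 and 165 and 255 CPM with STIM1::MXD3. RPL37A stood at 442 and 652 CPM in EV, 360.3 and 555 CPM with MXD3, and 446 and 656 CPM with STIM1::MXD3, and RPL36A, on the X chromosome, had 314 and 479 CPM in the EV libraries, against 252 and 465 CPM with MXD3 and 308 and 480.03 CPM with STIM1::MXD3. In these 4 genes, and also in some longer ones such as RPL6 and RPL11, every replicate 2 library lay above every replicate 1 library. Within a replicate number MXD3 was the lowest library of each, also in RPL36A, where its replicate 2 ratio to EV was -0.040.

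Against EV, the genes of the set lay on both sides of 0 with STIM1::MXD3. The median log2 fold change of the 45 genes was 0.0052 (range -0.074 to 0.13), with 26 genes above and 19 below 0, where the median over all genes was 0.0096. In edgeR 0 of 45 passed (0.00648% of all genes), and 0 had an unadjusted p under 0.05 (0.953% of all genes). The block called 0 (0.0194% of all genes), with 0 at an unadjusted p under 0.05 (8.5% of all genes), and DESeq2 with the block called 0 of 45 with its filtering (0.188% of all genes) and 0 without (0.117%). Within pairs, 11 genes were higher in both (27.2% of all genes) and 11 lower in both (25.1% of all genes). In 4 genes, RPL3, RPL7A, RPL13A and RPL19, both STIM1::MXD3 libraries lay below both EV libraries (10% of all genes), and in 0 genes above them (12% of all genes). These are shares no larger than those of all genes.

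The genes with the smallest p-values here were RPL23, RPL3, RPL17 and RPL4. The log2 fold changes were 0.13 ± 0.19 for RPL23 and -0.065 ± 0.11 for RPL3 (SE; unadjusted p = 0.522 and 0.583, edgeR). For RPL17 and RPL4 they were 0.072 ± 0.13 and 0.068 ± 0.13 (SE). Each lies within 1 SE of 0. In fits without the block, RPL17 and RPL4 were below 0 without STIM1::MXD3 replicate 1 (-0.023 and -0.043). RPL23 was at -0.0015 without EV replicate 1 and -0.0080 without STIM1::MXD3 replicate 2. The sign of the median also turned with the scaling, to -0.0025 with the size factors of DESeq2, so neither direction is given for the set. The 19 genes with a log2 fold change below 0 include RPL38 (-0.074), RPL11 (-0.072) and RPL19 (-0.061), and their levels are among those above.

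Set directly against MXD3, all 45 genes were higher with STIM1::MXD3. The median log2 fold change was 0.24 (range 0.11 for RPL19 to 0.34 for RPL26), where the median over all genes was 0.0083. This comparison shares the MXD3 libraries with that of MXD3 against EV. All 45 were higher in both pairs (27.5% of all genes), with pair medians of 0.30 and 0.16, and in 23 both STIM1::MXD3 libraries lay above both MXD3 libraries (10.9% of all genes). Again no single gene passed the main test, with 0 of 45 called by edgeR (0% of all genes) and 3 higher at an unadjusted p under 0.05 (0.505% of all genes). With the block 40 of 45 had such a p (3.21% of all genes) and 0 passed after adjustment (0.00648%). In fits without the block, the median was 0.11 without MXD3 replicate 1, with 35 genes higher, and 0.36 without MXD3 replicate 2. There too the replicate numbers were unequal between groups.

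RPL27, RPL26, RPL17 and RPL32 had the smallest p-values between the constructs. For RPL27 the log2 fold change was 0.32 ± 0.12 and for RPL26 0.34 ± 0.13 (SE; unadjusted p = 0.0302 and 0.0361, edgeR). RPL17 was at 0.32 ± 0.13 and RPL32 at 0.28 ± 0.12 (SE; unadjusted p = 0.0381 and 0.0525, edgeR). In all 4 the STIM1::MXD3 libraries lay above both MXD3 libraries. DESeq2 with the block called 3 of 45, RPL17, RPL26 and RPL27 (0.0713% of all genes were called higher). It made 11 calls in all, all of them higher. The 0.0713% is a share of all 15431 genes tested. Of these, the filter of DESeq2 on mean counts had left 772 with an adjusted p, and it also removed RPL38. Without that filter it called 0 of the 45 (0.0324% of all genes were called higher), and the lowest adjusted p among them was 0.156.

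The same genes also differed between replicates within a group, by an amount that went with their length. The median difference in log2 CPM, replicate 2 minus replicate 1, was 0.10 in EV, 0.22 with MXD3 and 0.086 with STIM1::MXD3. Over all genes tested it was -0.0059, -0.0085 and 0.0079 in the same order. Of the 45 genes, 28, 40 and 25 were higher in replicate 2. Among the 15 genes with the shortest coding sequences (75 to 384 bases) the medians were 0.29, 0.40 and 0.29, and 14 of 15 were higher in replicate 2 in each group. RPLP1 was the exception each time (-0.25, -0.23 and -0.27 in the order EV, MXD3 and STIM1::MXD3). Among the 15 longest (588 to 1281 bases) the medians were -0.016, 0.098 and -0.047. For RPL41 the differences were 0.67, 0.77 and 0.65 and for RPL36A 0.61, 0.89 and 0.64, in the same order of groups, and at the other end RPL13 gave -0.45, -0.39 and -0.44. Across the 45 genes Spearman's rho between this difference and coding length was -0.63 in EV, -0.58 with MXD3 and -0.62 with STIM1::MXD3 (Pearson's r -0.68, -0.62 and -0.67), a description in which the genes share libraries. Whether this belongs to cells, RNA or library preparation was not tested.

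**Figure D4:**
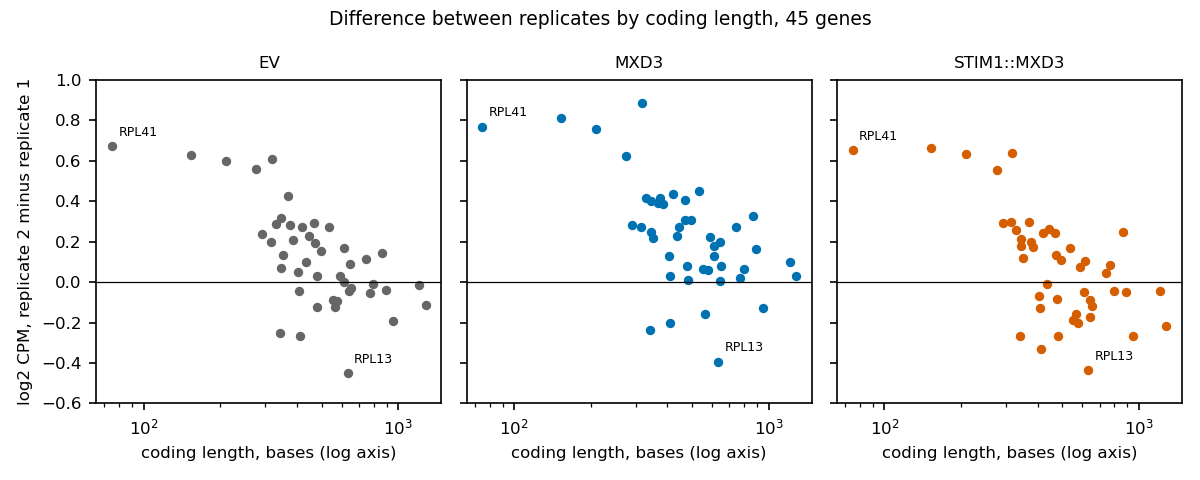
Difference in log2 CPM between replicate 2 and replicate 1 of a group, for each of the 45 genes, against coding length in bases (log axis), 1 panel per plasmid. In each panel RPL41 (at the far left), RPL39, RPL38, RPL37A and RPL36A lie near 0.6 or above. Other short genes such as RPL37 lie lower, RPLP1 lies below 0, and RPL13 is the lowest point.

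The difference of MXD3 from EV was of like size in short and long genes. The 15 shortest genes had median log2 ratios of MXD3 to EV of -0.29 in replicate 1 and -0.21 in replicate 2, and the 15 longest -0.27 and -0.17. Spearman's rho with coding length was 0.19 and 0.29. Offsets for GC content and for length used the length of the canonical transcript, not the coding length. The 2 lengths can differ widely, as in RPL37 (7573 bases against 291), so these offsets do not adjust for coding length. With the offsets and the block the median of MXD3 against EV was -0.21, with 45 genes lower. Of the 45, 30 had an unadjusted p under 0.05 in edgeR (8.06% of all genes), from 36 without the offsets. For STIM1::MXD3 against MXD3 the relation was not the same in both replicates. Spearman's rho with coding length was -0.029 in replicate 1 and -0.38 in replicate 2, and with GC percent it was -0.45 and 0.11 (descriptions over 45 genes). There the offsets with the block gave a median of 0.17, from 0.24, with 45 genes higher and 24 at an unadjusted p under 0.05 (2.97% of all genes), from 40 without the offsets. Across the 45 genes the ratio of MXD3 to EV in replicate 1 went with that in replicate 2 at a Spearman's rho of 0.53, so that RPL35A, RPL26 and RPL27 were low and RPL15, RPL23 and RPL4 nearer 0 in both. The 18 genes that host 37 small nucleolar RNAs in their introns had a median of -0.23 for MXD3 against EV, and the 27 that host none -0.24.

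Per coding length, the levels of the genes differed far more than plasmids moved them. In EV RPL41 stood highest at 11265 CPM per kb of coding sequence, followed by RPLP1 at 5144 and RPLP0 at 4369. RPL13A (3909.5), RPL10 (3126) and RPL13 (3098) came next on this scale. The lowest were RPL38 (1052), RPL21 (1089.8) and RPL6 (1157). Coding length leaves out untranslated ends, which weigh most in a gene as short as RPL41, and RPL21 is the gene of the set with the most pseudogenes. With MXD3 the 3 highest were at 9871, 4444 and 3803 CPM per kb, and with STIM1::MXD3 at 11665, 5031 and 4444, in the same order.

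Other parts of the translation machinery were set beside the large subunit as counts and medians. The 32 small-subunit genes had a median of -0.24 for MXD3 against EV (31 lower), -0.0072 for STIM1::MXD3 against EV and 0.21 between the constructs (31 higher), with 0 called by edgeR in any comparison. For MXD3 against EV 2 of them had an unadjusted p under 0.05 in edgeR (287 of all 15431 genes). DESeq2 with the block called 8 of them (243 of all 15431 genes). Of the other messengers with a TOP tract, such as EEF1A1 and TPT1, 16 of 16 were lower with MXD3 (median -0.17). Between the constructs 16 of 16 were higher with STIM1::MXD3 (0.19), and the median of STIM1::MXD3 against EV was 0.018. In both pairs 12 of the 16 were lower with MXD3 than in EV (31.5% of all genes). Between the constructs 14 were higher in both (27.5% of all genes). The 49 genes of the mitochondrial large subunit, which serves the mitochondrial genome, had -0.053 (35 lower), 0.043 and 0.093 in the same order. None of these medians was tested against that of the large subunit.

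**Figure D5:**
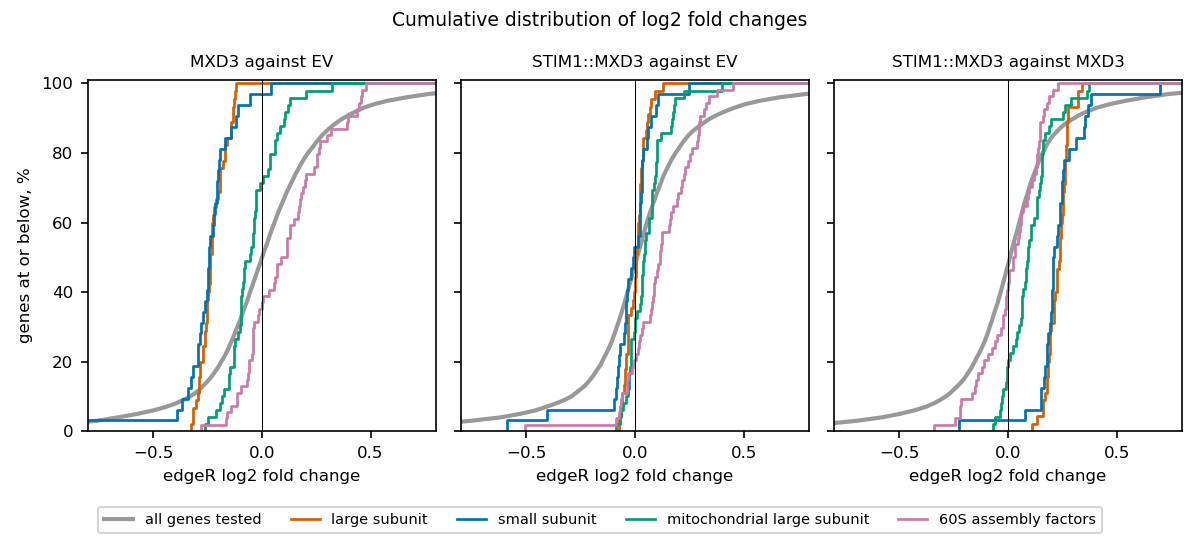
Cumulative share of genes (percent) at or below a log2 fold change from edgeR, for the 45 large-subunit genes, 32 small-subunit genes, 49 mitochondrial large-subunit genes, 54 assembly factors of the 60S subunit and all 15431 genes tested. The curves of the large and small subunit rise more steeply than that of all genes and cross it. Most of their rise lies left of 0 for MXD3 against EV, around 0 for STIM1::MXD3 against EV, and right of 0 between the constructs.

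The factors that assemble the large subunit had a median log2 fold change of 0.10 for MXD3 against EV (range -0.28 to 0.48). Of 54 such genes 35 were higher and 19 lower, where 7742 of 15431 genes tested were higher, and their difference from the proteins of the subunit was not tested. In both pairs 26 were higher and 12 lower. For STIM1::MXD3 against EV 43 were higher (median 0.11), and the median between the constructs was 0.027. Under edgeR 0 of these assembly factors were called in any comparison. For MXD3 against EV 3 had an unadjusted p under 0.05 in edgeR (287 of all 15431 genes), and DESeq2 with the block called 6 (243 of all 15431 genes). Of 11 regulators of TOP messengers, LARP1, MTOR and TSC1 among them, 6 were higher and 5 lower with MXD3 (median 0.097), with 0 called. The 4 chaperones of single large-subunit proteins had a median of 0.027. Of 7 genes that encode variant copies of members, 5 were tested, with a median of -0.011 for MXD3 against EV. Their range was -0.58 to 0.13, wider than that of the 45 members (-0.33 to -0.12). Of the 5, edgeR called 0 and DESeq2 with the block called 1, where it called 243 of the 15431 genes. RPL22L1, the variant of RPL22, had 38.5 and 27.8 CPM in EV, 25.3 and 19.1 CPM with MXD3, and 36.3 and 18.5 CPM with STIM1::MXD3. RPL36AL, the autosomal copy of RPL36A, had 52.3 and 78.9 CPM in EV, 53.8 and 76.5 CPM with MXD3, and 51.5 and 80.7 CPM with STIM1::MXD3, with the replicate 2 libraries higher as in RPL36A and no gap between plasmids.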

How the data were processed

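Poly A RNA libraries of K562 cells were used, 2 for each of 3 plasmid groups, with groups and replicate numbers taken from the labels. The authors deposited 1 table per library, which held unnormalised read counts under NCBI Gene IDs. The submitters' processing notes name HISAT2 2.2.1, featureCounts 2.0.1 and hg19 without giving their roles; the annotation, strand setting and treatment of multi-mapping reads are not given in the sources used here. Among genes with 1 to 39 counts, 59.8% to 67.3% of counts were even, so both ends of a read pair may have been counted, and counts divided by 2 were tried.

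Genes were kept with filterByExpr (15431 of 25702), scaled with TMM and compared by edgeR 4.0.16 (R 4.3.3) in 1 quasi-likelihood fit of all 6 libraries that had a coefficient for each group, with two-sided F tests. P-values were adjusted over all genes tested by the Benjamini-Hochberg method, threshold 0.05. Levels are TMM-scaled CPM, shares of the library use unscaled totals, pair ratios use log2 CPM with a prior count of 2, and SEs come from the edgeR fit. DESeq2 1.42.0 was an alternative. Gene positions, coding lengths (without the stop codon) and pseudogenes came from GENCODE on GRCh37, and start windows from RefSeq on GRCh38.p14. The edgeR step was tested on simulated counts. Python 3.11.15 and matplotlib 3.10.9 were used for summaries and plots.

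Libraries with the same replicate number departed from their group means together. Across all genes tested the correlations were 0.270 (EV with MXD3), 0.364 (STIM1::MXD3 with EV) and 0.450 (MXD3 with STIM1::MXD3). They were higher, at 0.62, 0.71 and 0.79 in the same order, when 10250 genes averaging 5 CPM or more were used. The members belong to these, their lowest level in a library being 135 CPM (RPL38 in MXD3 replicate 1). The replicate number was therefore taken to pair libraries. Fits with this number as a block are given where they change a call. The labels do not say what the number marks. Genes were named by a rule: the 4 members with the smallest p per comparison, members of set role groups, and the 3 highest and 3 lowest levels per coding length; the rest are given for completeness. The members and lists were chosen with earlier results of these data known, so the counts are not independent support for them. Results for some genes outside the set are not reported here.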

Additional observations from a re-analysis of the deposited data

How the results depend on the processing

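For MXD3 against EV the number of genes called stayed at 0 of 45 in every setting other than DESeq2 with the replicate block (12) and the same without independent filtering (6, a setting chosen after the data were seen). The median ran from -0.34 to -0.13 when 1 library was left out, at -0.13 without MXD3 replicate 1 and -0.34 without MXD3 replicate 2. Between the constructs 3 genes were called by DESeq2 with the replicate block and 0 in the other settings, and the median ran from 0.11 to 0.36 over left-out libraries, at 0.11 without MXD3 replicate 1. For STIM1::MXD3 against EV 0 genes were called in every setting, and the median turned below 0 with the size factors of DESeq2 (-0.0025), in DESeq2 (-0.0025), with length and GC offsets (-0.025, and -0.028 with the replicate block), and ran from -0.049 to 0.064 over left-out libraries. Over left-out libraries RPL23 ran here from -0.0080 (STIM1::MXD3 replicate 2 left out) to 0.27, with -0.0015 when EV replicate 1 was left out, RPL17 from -0.023 to 0.15 and RPL4 from -0.043 to 0.17, both lowest when STIM1::MXD3 replicate 1 was left out. The cause of these turns was not tested. The paired fit in edgeR left every count of calls at 0, with medians of -0.24, 0.0090 and 0.24. Depth was no limit for genes at these levels, whereas 2 libraries a group left 3 residual degrees of freedom, or 2 with the block.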
